A study of Mus musculus with 4 samples.

Results

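The genes described are 10 components of the Notch pathway: the receptors Notch1, Notch2, Notch3 and Notch4, the ligands Jag1 and Dll1, the nuclear proteins Rbpj and Maml1, and Hes1 and Dtx1, which Notch signalling is known to switch on. They were chosen by name, with earlier results of these data known. Each gene was taken with 5 kb on both sides in the mouse build mm10, and these stretches held 795 cytosine positions covered 5 times or more by every library, of 4795507 in the whole table. The positions fell into 52 testable windows of 1 kb, of 314531 in all, and 8 of the 52 lay beside a gene and not in it.

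Notch receptors are membrane proteins that a ligand on a neighbouring cell activates. The ligand pulls on the receptor, proteases cut it, and the freed inner domain enters the nucleus, where it joins the DNA-binding factor RBPJ and a Mastermind coactivator to switch on target genes. In the T cell lineage the pathway is best known for committing progenitors to the T cell fate, through Notch1, and for shaping helper and regulatory T cell responses in mature cells. DNA methylation at CpG dinucleotides is usually absent from active CpG-rich promoters and dense over the rest of the genome.

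Whole-genome bisulfite sequencing, in which an unmethylated cytosine is read as T, was done on genomic DNA of spleen CD4+ T cells from NOD mice, a strain with spontaneous autoimmune diabetes. The groups were OX40L-JAG1 Teff, PBS Teff, OX40L-JAG1 Treg and PBS Treg, with 1 library each. OX40L-JAG1 mice had received OX40L and Jagged-1 proteins together, the second of them a Notch ligand encoded by Jag1, and PBS mice had received buffer, once weekly for 3 weeks from 6 weeks of age. Cells were sorted at 10 weeks, 1 week after the last dose, as CD4+CD25- effector T cells (Teff) and CD4+CD25hi regulatory T cells (Treg). All groups share the NOD strain, the labels name no engineered mutation, and the number of animals behind a library was not given. With 1 library per group, every test below compares libraries and not conditions.

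The sort was checked on marker genes. Of the 5 Treg genes Foxp3, Ikzf2, Ikzf4, Il2ra and Ctla4, 4 had called windows lower in Treg than in Teff in the OX40L-JAG1 pair and 4 in the PBS pair. In each pair these were 25 of 72 windows, against 0.0588% and 0.165% of all windows, so both Treg libraries carried the methylation pattern of their label. B cell genes had 0 called windows of 26 in all 4 comparisons, and CD8 T and NK cell genes 0 of 9. Of the myeloid genes, Spi1 had 2 windows higher in Treg than in Teff in each pair, and 0 of 23 myeloid windows were called for the treatment in either cell type. Depending on comparison and direction, 0.0194% to 0.47% of all windows were called. With such shares, 0 calls in 9 to 26 windows tell little about the sort. At Cd3e, which encodes a chain of the T cell receptor complex, the level over the gene and its flanks was 46.1% in OX40L-JAG1 Teff and 26.1% in PBS Teff, and 57.5% in OX40L-JAG1 Treg and 45% in PBS Treg. Over all positions read in the 4 libraries, the level was 81.6% in OX40L-JAG1 Teff and 85.2% in PBS Teff, and 82.2% in OX40L-JAG1 Treg and 84.9% in PBS Treg.

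The promoter sequences of 5 genes with at least 10 read positions in a library are shown because they hold the CpGs nearest the starts for which reads can be counted. Each line gives the 250 bases before an annotated start, from RefSeq, build GRCm38.p6, written 5′ to 3′ on the strand of the gene. Capitals mark the CpG dinucleotides at which at least 1 library lists a position, and CpGs in lower case were not read.
Notch2, chr3:98013288-98013537, plus strand: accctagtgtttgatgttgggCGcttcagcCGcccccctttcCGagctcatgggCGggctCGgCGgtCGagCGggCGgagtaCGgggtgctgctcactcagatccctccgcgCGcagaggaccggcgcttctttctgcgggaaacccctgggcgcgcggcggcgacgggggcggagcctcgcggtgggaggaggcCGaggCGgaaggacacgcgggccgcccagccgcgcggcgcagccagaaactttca
Dll1, chr17:15376933-15377182, minus strand: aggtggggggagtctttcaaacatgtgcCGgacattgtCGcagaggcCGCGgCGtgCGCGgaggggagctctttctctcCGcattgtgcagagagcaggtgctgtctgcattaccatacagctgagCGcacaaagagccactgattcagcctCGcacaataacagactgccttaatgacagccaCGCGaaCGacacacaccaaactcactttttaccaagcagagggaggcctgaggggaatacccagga
Rbpj, chr5:53590096-53590345, plus strand: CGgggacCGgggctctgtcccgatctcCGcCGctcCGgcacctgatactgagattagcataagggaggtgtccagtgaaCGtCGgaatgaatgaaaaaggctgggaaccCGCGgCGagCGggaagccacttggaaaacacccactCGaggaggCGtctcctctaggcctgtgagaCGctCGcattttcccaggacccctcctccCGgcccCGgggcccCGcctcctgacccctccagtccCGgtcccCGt
Dtx1, chr5:120711670-120711919, minus strand: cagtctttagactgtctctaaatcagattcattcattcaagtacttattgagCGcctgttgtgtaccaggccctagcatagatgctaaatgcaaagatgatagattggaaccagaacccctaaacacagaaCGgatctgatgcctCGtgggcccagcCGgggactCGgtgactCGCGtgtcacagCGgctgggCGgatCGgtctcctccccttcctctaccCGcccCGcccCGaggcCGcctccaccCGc
Maml1, chr11:50292337-50292586, minus strand: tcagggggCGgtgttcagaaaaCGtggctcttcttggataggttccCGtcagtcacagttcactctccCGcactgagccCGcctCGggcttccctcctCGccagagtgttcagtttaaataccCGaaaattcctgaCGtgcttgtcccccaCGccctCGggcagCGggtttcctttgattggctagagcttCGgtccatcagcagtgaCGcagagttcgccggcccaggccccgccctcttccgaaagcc

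Few reads at these CpGs were methylated, in the libraries with more than 5 reads there. In the Dll1 promoter, where all 13 CpGs were read, 0 of 42 reads were methylated in OX40L-JAG1 Teff and 2 of 142 in PBS Teff, and OX40L-JAG1 Treg had 3 of 78. Rbpj, encoding the DNA-binding factor, had 1 methylated read of 70 in OX40L-JAG1 Teff and 0 of 60 in PBS Teff. In the Dtx1 promoter, 1 of 86 reads was methylated in OX40L-JAG1 Teff and 1 of 39 in PBS Teff, and 1 of 5 in OX40L-JAG1 Treg. Maml1 had 1 of 41 in OX40L-JAG1 Teff and 1 of 96 in PBS Teff, while in Notch2 the PBS Treg library had 1 of 58. The letters TGGGAA, the core of the site that RBPJ binds, occurred on either strand in 2 of 11 promoter entries of the 10 genes, both of them entries of Rbpj that overlap, and in 21.6% of 32851 mouse promoters of the same length.

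The 1-kb stretch centred on each start gave the same picture with more reads. Here each library was read at its own listed positions, so levels of different libraries rest on different cytosines and are not compared. Pooled over the genes with an annotated start, 1.26% of 955 reads were methylated in OX40L-JAG1 Teff, 4.56% of 1229 in PBS Teff, 5.53% of 470 in OX40L-JAG1 Treg and 2.25% of 444 in PBS Treg. Over all mouse starts the level was 36.7%, 37.5%, 39.7% and 39.3% in the same 4 libraries. The Notch genes and all starts differ in CpG content. The 250 bases before a start held a median of 6 CpGs over all promoters. The entries of the Notch genes held 13 to 34, except that of Notch4, with 4. The part of CpG content in the gap was not tested. Notch1, the receptor that T cell commitment depends on, had 0 methylated reads of 60 in OX40L-JAG1 Teff and 1 of 250 in PBS Teff, and 1 of 21 in OX40L-JAG1 Treg and 1 of 79 in PBS Treg. At Jag1, encoding the ligand given to the treated mice, 0 of 30 reads were methylated in OX40L-JAG1 Teff and 1 of 80 in PBS Teff, against 0 of 10 in OX40L-JAG1 Treg and 2 of 123 in PBS Treg. A member start with at least 20 reads was under 20% in 6 of 6 cases in OX40L-JAG1 Teff, 7 of 8 in PBS Teff, 6 of 6 in OX40L-JAG1 Treg and 5 of 5 in PBS Treg. Of all starts with that many reads, between 40% and 40.5% were under 20% in each library.

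The exception was Notch3, a receptor best known from vascular smooth muscle, whose start held 33 reads at 5 positions in PBS Teff, with a level of 93.9%. The other libraries had 6 reads or fewer there. Notch4, a receptor of endothelial cells, had only 1 position read at its start in OX40L-JAG1 Teff, with 4 of 7 reads methylated. PBS Teff had no position read there. In OX40L-JAG1 Treg 4 of 29 reads at 5 positions were methylated, and in PBS Treg 3 of 5 reads.

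**Figure D1:**
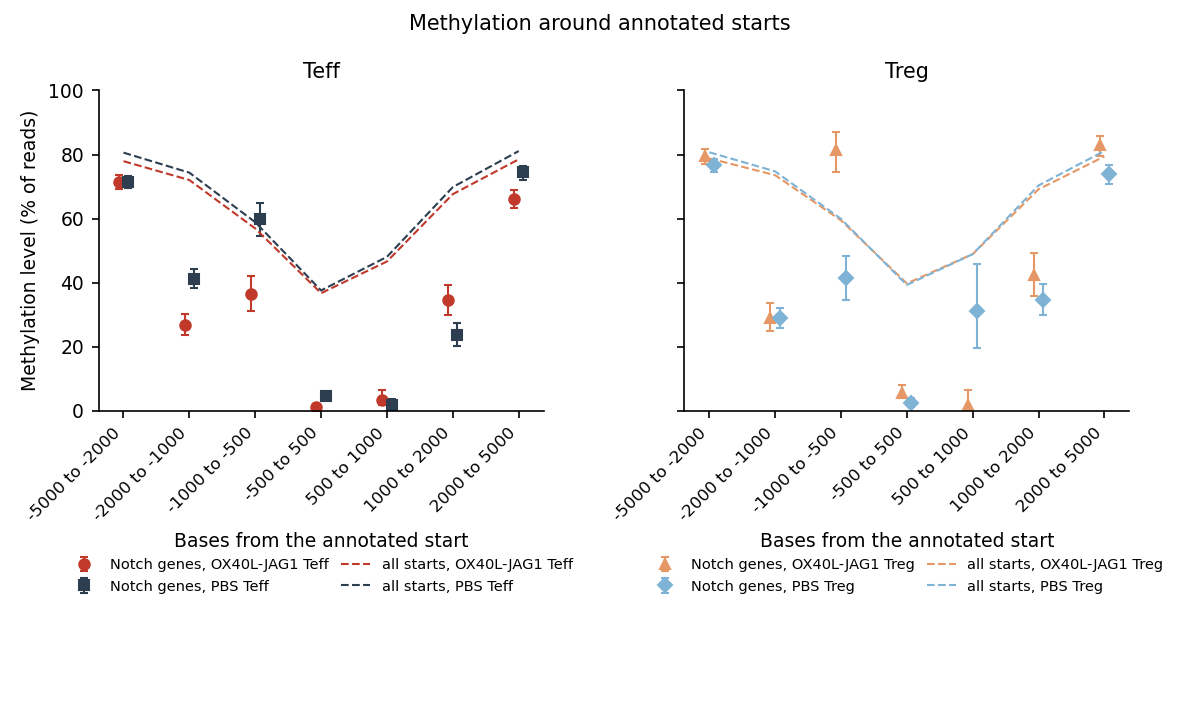
Methylation level (% of reads) by distance in bases from the annotated start, for the Notch genes (points, 95% Wilson intervals) and for all mouse starts (dashed lines), in the OX40L-JAG1 and PBS libraries of Teff (left) and Treg (right). In the bin from -500 to 500 the Notch genes lie at 1.26% to 5.53% and all starts at 36.7% to 39.7%; beyond 2000 bases on either side the Notch genes lie at 66.2% or above.

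Between 500 and 2000 bases from the start the levels varied more between libraries, each again read at its own positions. From -1000 to -500 bases the pooled level of the Notch genes was 36.5% in OX40L-JAG1 Teff and 59.8% in PBS Teff, and 81.5% in OX40L-JAG1 Treg, on 25 positions, and 41.4% in PBS Treg, on 31.

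The following levels use only positions read in all 4 libraries, so the 4 values of a gene rest on the same cytosines. Over a gene and its flanks, the 10 genes had a median level of 84.2% in OX40L-JAG1 Teff and 86.1% in PBS Teff, and of 84.8% in OX40L-JAG1 Treg and 85% in PBS Treg. The medians over 16620 protein-coding loci were 83.0%, 86.3%, 83.5% and 86.0% in the same libraries. The order of the genes was alike in the 4 libraries at its lower end only. The highest gene was Dtx1 in both Teff libraries, Notch2 in OX40L-JAG1 Treg and Jag1 in PBS Treg. Notch2, Dtx1, Jag1 and Notch3 stood at the top, between 86.3% and 94.7%, Maml1, Notch4, Rbpj and Dll1 followed, between 72.9% and 88.4%, and Notch1 and Hes1 were lowest, at 35.5% to 62.4%. The upper groups crossed in OX40L-JAG1 Treg, where Maml1 stood above Notch3 and Jag1. The 95% interval of Hes1 lay below those of all 8 upper genes in every library, and so did that of Notch1 except in OX40L-JAG1 Teff, where it overlapped the interval of Dll1. The Notch1 level rests on 25 of 897 listed positions. Of the 25, 8 lie in a single window upstream of the gene, described below, at 5.26% to 29.6% in the 4 libraries. The low rank of Notch1 therefore leans on that window and does not describe the gene body.

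Hes1, a target that encodes a repressor, had 2 windows of opposite state. The window over the gene was 2.16% of 139 reads in OX40L-JAG1 Teff and 1.20% of 167 in PBS Teff, and 3.57% of 112 in OX40L-JAG1 Treg and 0 of 90 reads in PBS Treg, where 0 of 90 has an upper Wilson bound of 4.09%. The other window, chr16:30071001-30072000, beyond the gene, was 87.5% and 91.6% in OX40L-JAG1 and PBS Teff, and 87.5% and 95.4% in OX40L-JAG1 and PBS Treg. The Rbpj window chr5:53588001-53589000, inside the annotated gene and shortly before its nearer listed start, was likewise almost free of methylation, at 0 of 235 reads in OX40L-JAG1 Teff, 1.57% of 318 in PBS Teff, 2.12% of 189 in OX40L-JAG1 Treg and 0.851% of 235 in PBS Treg.

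**Figure D2:**
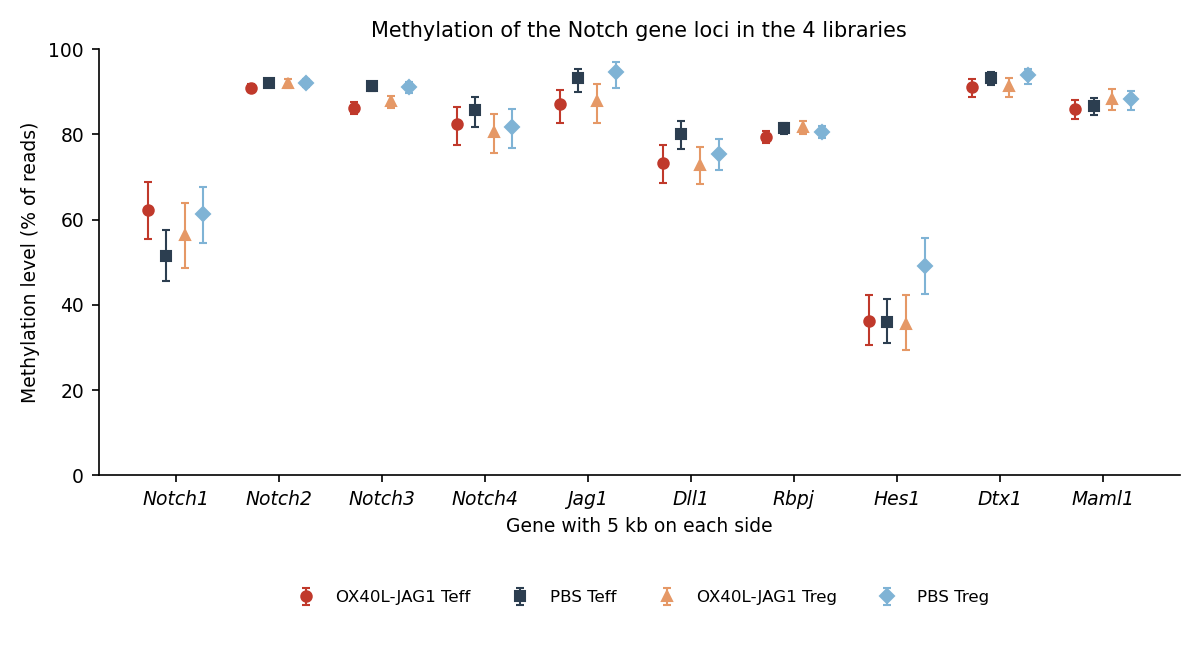
Methylation level (% of reads) over each Notch gene with 5 kb on each side, at the positions read in all 4 libraries; points are single libraries and bars 95% Wilson intervals, which cover counting error only. Notch1 lies at 51.5% to 62.4% and Hes1 at 35.5% to 49.1%, and the other 8 genes lie at 72.9% or above. Of the 25 Notch1 positions, 8 lie in 1 upstream window at 5.26% to 29.6%.

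These 2 windows were the only ones of the 52 under 20% in all 4 libraries, while 43 were at 80% or more in all 4 and 7 fell in neither class. Counted in each library alone, 84.6% to 88.5% of the 52 windows were at 80% or more, against 71.5% to 80.8% of all windows. Under 20% were 3.85% to 7.69% of the 52, against 1.44% to 1.49% of all windows. Among the 7, a Notch3 window near the end of the gene, chr17:32123001-32124000, which also overlaps the gene Gm38585, was intermediate in every library, at 51.7% of 203 reads in OX40L-JAG1 Teff and 53.8% of 210 in PBS Teff, and 50.7% of 140 in OX40L-JAG1 Treg and 55% of 220 in PBS Treg. Dll1, encoding a Delta-type ligand, had a window upstream of its start, chr17:15378001-15379000, at 26.7% of 60 reads in OX40L-JAG1 Teff and 31.1% of 90 in PBS Teff, and 16.9% of 71 in OX40L-JAG1 Treg and 24.0% of 100 in PBS Treg. No difference in this Notch3 window or this Dll1 window passed Fisher's exact test in any comparison (Benjamini-Hochberg adjusted p between 0.909 and 1).

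Comparing OX40L-JAG1 Teff with PBS Teff asks whether mice given a Notch ligand show methylation differences at Notch genes in effector cells. A window was called when its adjusted p in the two-sided Fisher's exact test, with Benjamini-Hochberg adjustment over all windows, was under 0.05 and the levels differed by at least 20 percentage points. Of the 52 windows, 1 was called higher and 0 were called lower in OX40L-JAG1 Teff, while over the genome 0.0884% were called higher and 0.47% lower. The median window difference was -2.04 points for the Notch genes and -2.82 points for all windows. Lower in OX40L-JAG1 Teff were 36 of the 52 windows, or 69.2%, against 73.9% of all windows. Unadjusted p-values under 0.05 occurred in 8 of the 52 windows, or 15.4%, against 15.9% of all windows. Both medians lay below 0, in a pair of libraries whose overall levels differed in the same direction.

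**Figure D3:**
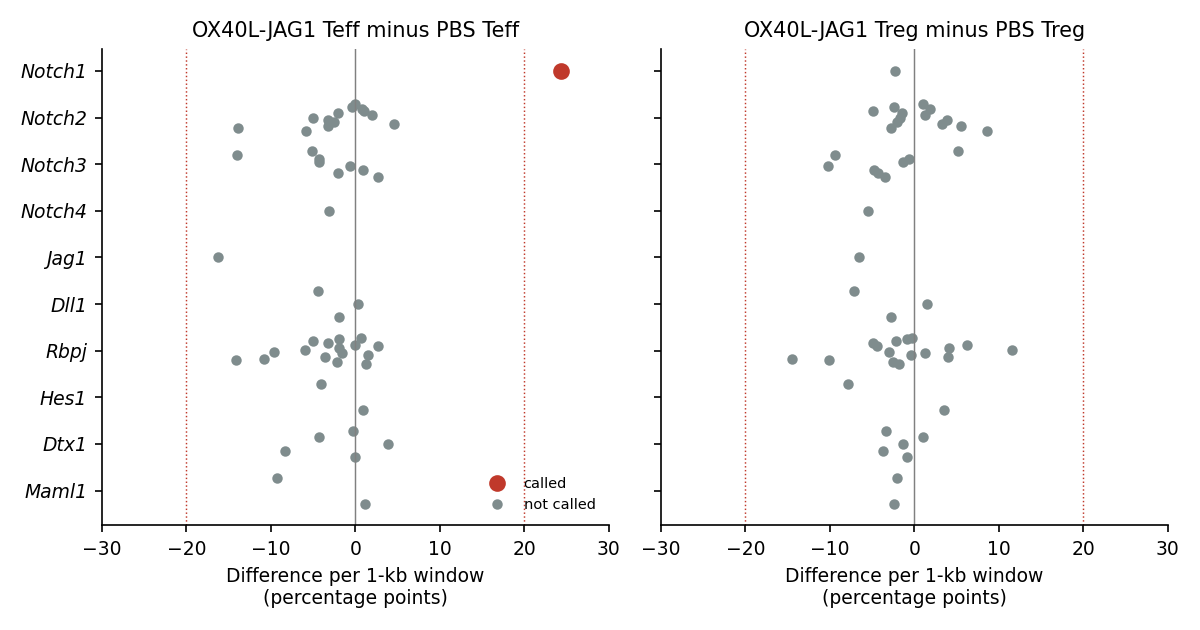
Difference in methylation level (percentage points) of the 52 windows at the Notch genes, OX40L-JAG1 minus PBS, in Teff (left) and Treg (right); each point is a 1-kb window, and dotted lines mark 20 points either way. The window at Notch1 is the only called one, at 24.3 points in Teff, and it lies at -2.34 points in Treg.

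The called window lies upstream of Notch1, at chr2:26507001-26508000, and overlaps no annotated gene. Notch1 is on the minus strand with its start at position 26503822, and the 8 positions read in all libraries lie 3801 to 4147 bases before it. In OX40L-JAG1 Teff 29.6% of 71 reads were methylated, against 5.26% of 95 reads in PBS Teff, a difference of 24.3 points (95% Newcombe interval 12.9 to 36.1, adjusted p of Fisher's exact test 0.00342). In OX40L-JAG1 Treg 9.09% of 55 reads were methylated, against 11.4% of 70 in PBS Treg, a difference of -2.34 points (-13.2 to 9.51, adjusted p 1). Summed over the window, the OX40L-JAG1 Teff library was the high one, and the other 3 lay close together. At the farthest position, 4147 bases before the start, the Treg libraries were higher than the Teff libraries. There 3 of 6 reads were methylated in OX40L-JAG1 Treg and 3 of 7 in PBS Treg.

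Position by position, 6 of the 8 were higher in OX40L-JAG1 Teff than in PBS Teff, 1 was lower and 1 was equal. The 5 nearest to the gene carried the difference. At 3801 bases before the start 3 of 5 reads were methylated in OX40L-JAG1 Teff and 0 of 8 in PBS Teff, and at 3894 bases 3 of 7 against 0 of 11. At 3966 bases, with as many reads as any, 6 of 12 were methylated in OX40L-JAG1 Teff and 1 of 14 in PBS Teff, and at 3979 bases 5 of 12 against 1 of 14. The 3 positions farther out had 0 of 11, 0 of 7 and 1 of 8 methylated reads in OX40L-JAG1 Teff, and 0 of 13, 1 of 10 and 1 of 12 in PBS Teff. Neighbouring positions can lie on the same reads, so fewer molecules than reads stand behind the window. With all counts divided by 3 the difference was 22.9 points and the adjusted p 1, and the window was no longer called.

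**Figure D4:**
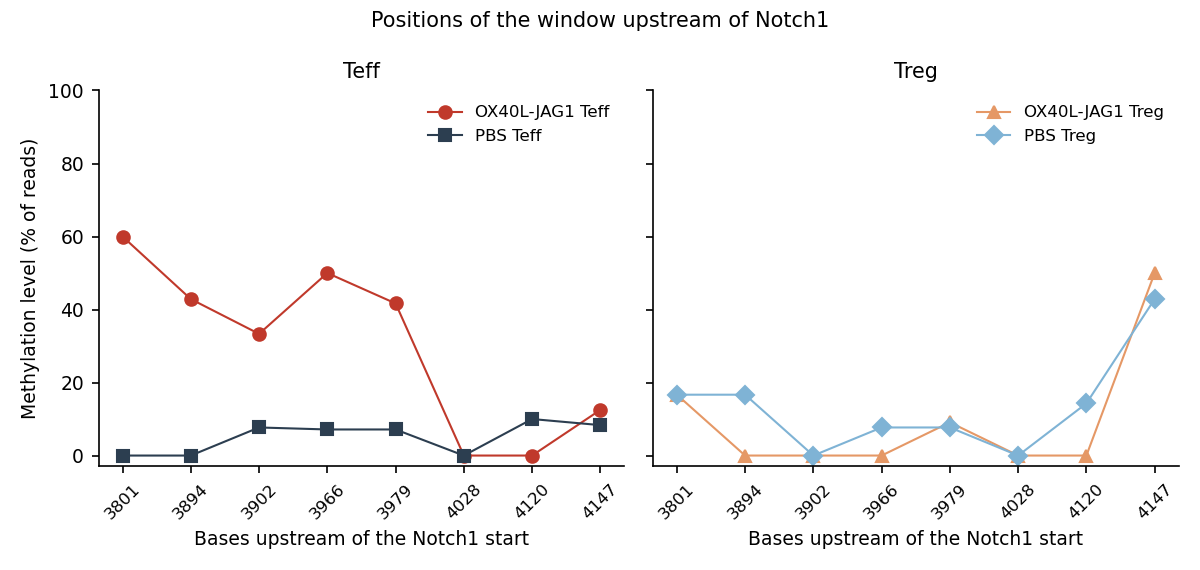
Methylation level (% of reads) at the 8 positions of the window upstream of Notch1 that were read in all libraries, by bases upstream of the start, in Teff (left) and Treg (right). The 5 positions nearest the gene lie at 33.3% to 60.0% in OX40L-JAG1 Teff and at 7.69% or below in PBS Teff, with 5 to 14 reads each; lines only join the points.

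The difference between the treatment effects in the cell types was not called at this window. It was -26.7 points, Treg minus Teff, with an adjusted p of 0.83 in the Wald test of the interaction, and 0 of the 52 windows had a called interaction, against 0.0108% of all windows. Marker genes also differed between the Teff libraries. The Cd3e window chr9:44999001-45000000 was 38.5% of 844 reads in OX40L-JAG1 Teff and 14.6% of 1064 in PBS Teff. It was also 38.5% of 774 reads in PBS Treg, so PBS Teff was the lowest of the libraries given here. Over the whole Cd3e locus the OX40L-JAG1 library was the higher one in Teff and in Treg. In all, 1 window of 14 at the 5 T cell genes was called higher in OX40L-JAG1 Teff and 0 lower, against 0.0884% and 0.47% of all windows. Over the T cell loci with at least 20 positions the differences ran from -6.27 to 20 points. The 5 Treg loci were all lower in OX40L-JAG1 Teff, with differences of -18.3 to -0.792 points, with 0 of 72 windows called. Of all protein-coding loci, 85.3% were lower in that library, with a median of -2.68 points. The widest of the 5 was Ctla4, at 63.1% in OX40L-JAG1 Teff and 81.4% in PBS Teff (-23.6 to -13.0). All 5 were also lower in OX40L-JAG1 Treg than in PBS Treg, with differences of -11.5 to -0.446 points and 1 of 72 windows called lower. There Ctla4 was again the widest, at 23.1% in OX40L-JAG1 Treg and 34.6% in PBS Treg. At the B cell genes 0 of 26 windows were called, and the 4 loci with at least 20 positions differed by -3.14 to -2.33 points. In a bulk library a different mixture of cells and a different level in each cell cannot be told apart, and the part of either in the Notch1 difference was not tested.

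Over the whole Notch1 locus the level was 62.4% of 194 reads in OX40L-JAG1 Teff and 51.5% of 262 in PBS Teff, a difference of 10.8 points (1.64 to 19.7). Without the called window the difference over the remaining 17 positions was 3.46 points (-6.16 to 12.5). Of the 10 loci, 1, that of Notch1, had an interval wholly above 0, and 4 had one wholly below, against 2.1% and 48.1% of all protein-coding loci. The 4 were Notch3 with -5.04 points (-6.82 to -3.30), Jag1 with -6.10 (-11.1 to -1.39), Dll1 with -6.79 (-12.3 to -1.41) and Rbpj with -1.98 (-3.84 to -0.132). The median over the 10 loci was -2.03 points and over all loci -2.68 points.

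**Figure D5:**
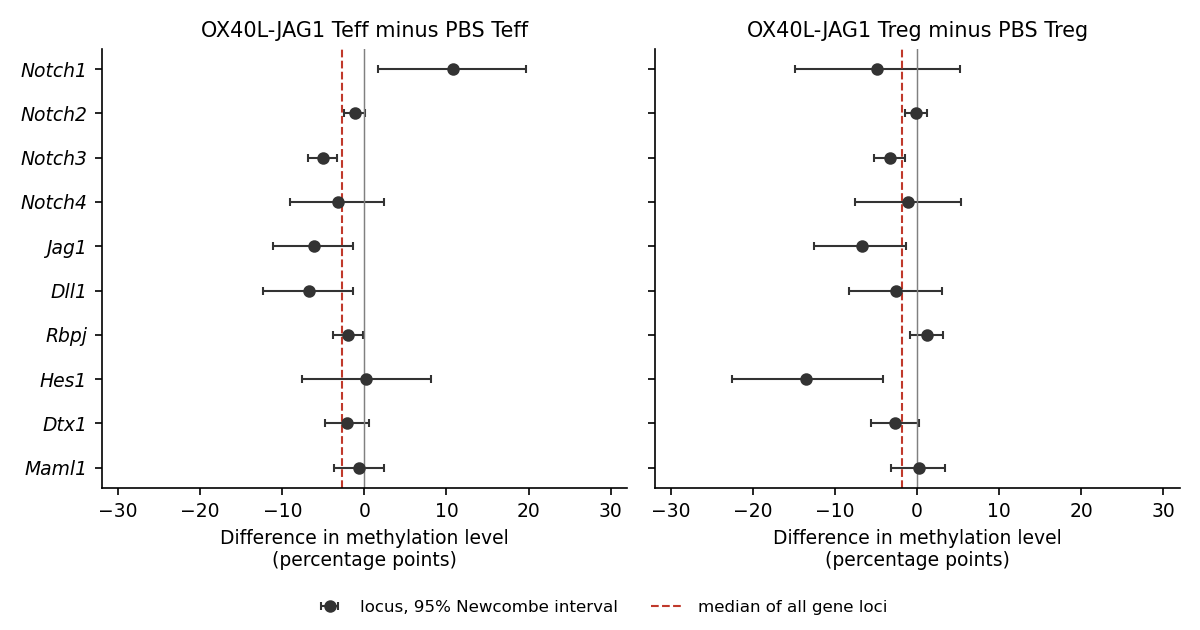
Difference in methylation level (percentage points) over each Notch gene with its flanks, OX40L-JAG1 minus PBS, in Teff (left) and Treg (right), with 95% Newcombe intervals; the dashed line is the median of 16620 gene loci, at -2.68 points in Teff and -1.88 in Treg. Notch1 is the only locus whose interval lies above 0 in Teff, at 10.8 points.

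A further 4 windows passed the adjusted threshold in Teff with differences under 20 points, and all 4 were lower in OX40L-JAG1 Teff. Of all windows, 2.85% were lower and past the same adjusted threshold, by any amount. In Notch3, chr17:32156001-32157000 was 84.1% of 88 reads in OX40L-JAG1 Teff and 98.1% of 154 in PBS Teff, a difference of -14.0 points (adjusted p of Fisher's exact test 0.00772), and 86.0% in OX40L-JAG1 Treg and 95.5% in PBS Treg (adjusted p 0.417). A single position of it, 9920 bases inside the gene, had 16 of 25 methylated reads in OX40L-JAG1 Teff and 39 of 40 in PBS Teff. The second Notch3 window, chr17:32146001-32147000, differed by -4.26 points on 521 and 703 reads. In Rbpj, chr5:53567001-53568000 was 85.9% of 99 reads in OX40L-JAG1 Teff and 100% of 75 in PBS Teff, and 89.9% in OX40L-JAG1 Treg and 100% in PBS Treg. In Maml1, whose product bridges the receptor complex to the transcription machinery, chr11:50283001-50284000 was 90.1% of 171 reads in OX40L-JAG1 Teff and 99.3% of 151 in PBS Teff. The single Jag1 window, upstream of the gene at chr2:137120001-137121000, was 75.6% of 82 reads in OX40L-JAG1 Teff and 91.9% of 86 in PBS Teff, with an adjusted p of 0.103. No window of Notch2, Notch4, Dll1, Hes1 or Dtx1 passed the threshold in this pair.

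Many positions were read well in only some libraries. Using positions with at least 5 reads in the 2 libraries compared, 209 windows at the Notch genes could be tested in Teff, of which 3 were called higher and 1 lower, against 0.0567% and 0.362% of all windows tested in this way. The Notch1 window was 1 of the 3. In Notch2, a receptor of marginal zone B cells and of T cell responses, chr3:98101001-98102000 was 76.3% of 38 reads in OX40L-JAG1 Teff and 34.3% of 35 in PBS Teff (adjusted p of Fisher's exact test 0.0389). PBS Treg had 38.1% of 21 reads in that window at its own 4 listed positions. The Teff values rest on 6 positions, so the cytosines need not be the same. The third higher window, chr17:34593001-34594000, lies within 5 kb of the end of Notch4 but over the neighbouring gene Pbx2, at 26.9% of 67 reads in OX40L-JAG1 Teff and 3.8% of 79 in PBS Teff (adjusted p 0.0145). The lower window, in Rbpj at chr5:53577001-53578000, was 68.1% of 113 reads in OX40L-JAG1 Teff and 90.8% of 152 in PBS Teff (adjusted p 0.00224). The median difference over the 209 windows was -1.56 points, against -2.96 points over all windows.

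In Treg the same treatment comparison gave no call at the Notch genes. Of the 52 windows, 0 were called higher and 0 lower in OX40L-JAG1 Treg than in PBS Treg by Fisher's exact test, against 0.0194% and 0.0814% of all windows, and 4 had an unadjusted p under 0.05, or 7.69% against 9.48%. With positions read in both Treg libraries, 0 of 78 windows were called higher or lower, against 0.0147% and 0.0602%. The median difference of the 52 windows was -1.93 points and that of all windows -2.14 points. Lower in OX40L-JAG1 Treg were 36 of the 52, or 69.2%, against 67.6% of all windows. The widest negative difference was in Rbpj, at chr5:53572001-53573000, with 52.9% of 68 reads in OX40L-JAG1 Treg and 67.5% of 83 in PBS Treg (-14.5 points, -29.4 to 1.07). Of the 10 loci 3 had intervals wholly below 0 and 0 wholly above, against 31.5% and 1.95% of all loci. Notch3 differed by -3.34 points (-5.23 to -1.47) and Jag1 by -6.73 (-12.6 to -1.34), both lower in OX40L-JAG1 cells of each type.

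The third was Hes1, at 35.5% of 211 reads in OX40L-JAG1 Treg and 49.1% of 220 in PBS Treg, a difference of -13.5 points (-22.5 to -4.21). With every position given the same weight the levels were 39.7% in OX40L-JAG1 Treg and 43.0% in PBS Treg, and within the gene bounds alone the difference was 2.16 points in the other direction. Neither Hes1 window passed Fisher's exact test between the Treg libraries, with adjusted p-values of 0.702 in the gene and 0.671 beside it.

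Treg was set against Teff within each treatment, to ask whether the cell types differ at Notch genes. No window was called in either pair. In the OX40L-JAG1 pair 0 of 52 were higher and 0 lower in Treg, against 0.0547% and 0.0588% of all windows, and in the PBS pair 0 were higher and 0 lower, against 0.115% and 0.165%. Unadjusted p-values under 0.05 occurred in 8 of 52 windows of the OX40L-JAG1 pair, or 15.4% against 5.3% of all windows, and in 2 of 52 of the PBS pair, or 3.85% against 5.73%. The 8 were 4 windows of Rbpj and 1 each of Notch1, Notch2, Notch3 and Jag1, with adjusted p-values between 0.439 and 0.937. Of the loci, 1 of 10 had an interval above 0 and 0 below in the OX40L-JAG1 pair (Rbpj, 2.32 points), against 10.8% and 4.37% of all loci, and 2 above and 0 below in the PBS pair (Notch1, 9.75 points, and Hes1, 13.0 points), against 6.44% and 10.9%. The Hes1 value was 3.86 points with every position given the same weight and -0.706 within the gene bounds.

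Among the 52 windows read in all 4 libraries, a window of Rbpj had the widest difference between cell types in each pair. In the window chr5:53572001-53573000, inside the annotated gene and about 18 kb before the nearer listed start, the level was 52.9% of 68 reads in OX40L-JAG1 Treg and 75.3% of 81 in OX40L-JAG1 Teff, and 67.5% of 83 in PBS Treg and 86.1% of 115 in PBS Teff. Both Treg libraries lay below both Teff libraries. The differences were -22.4 points (-36.6 to -6.95, adjusted p of Fisher's exact test 0.53) and -18.6 points (-30.5 to -6.82, adjusted p 0.273). With windows moved by 500 bases the PBS pair gave 68.5% of 92 reads in PBS Treg and 89.7% of 175 in PBS Teff at chr5:53572501-53573500, which was called (-21.2 points, adjusted p 0.0103). At position 53572632 of that stretch 2 of 9 reads were methylated in OX40L-JAG1 Treg and 1 of 5 in OX40L-JAG1 Teff, and 0 of 6 in PBS Treg and 9 of 11 in PBS Teff.

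Upstream of Rbpj, chr5:53554001-53555000 differed the other way, at 97.3% of 185 reads in OX40L-JAG1 Treg and 91.8% of 219 in OX40L-JAG1 Teff, and at 99.1% of 219 in PBS Treg and 90.5% of 317 in PBS Teff. The adjusted p was 0.768 in the OX40L-JAG1 pair and 0.0038 in the PBS pair, where the difference of 8.55 points stayed under the threshold of 20. Of all windows, 0.197% were higher in PBS Treg with an adjusted p under 0.05. Position 53554811 made up much of it, with 84 of 85 methylated reads in OX40L-JAG1 Treg and 94 of 108 in OX40L-JAG1 Teff, and 85 of 86 in PBS Treg and 101 of 127 in PBS Teff. Its depth, 85 to 127 reads, was well above the median of 9 to 14.

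With positions read in the 2 libraries compared, 158 windows were tested in the PBS pair, with 1 called higher and 0 lower in Treg, against 0.0813% and 0.151% of all, and 95 in the OX40L-JAG1 pair, with 0 either way, against 0.0387% and 0.0465%. The called one was in Notch2, at chr3:98063001-98064000, with 84.8% of 33 reads in PBS Treg and 37.5% of 40 in PBS Teff (adjusted p of Fisher's exact test 0.0185). The OX40L-JAG1 libraries listed 2 positions there in Treg, with 10 reads, and 3 in Teff, with 23 reads, too few to compare with this pair.

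At single positions no call was made. Of 795 positions, 0 were called in any of the 4 comparisons by Fisher's exact test, against 0.0285% of all positions for the treatment in Teff, 0.000354% for the treatment in Treg, 0.00221% for Treg against Teff in the OX40L-JAG1 pair and 0.0169% in the PBS pair. An unadjusted p under 0.05 occurred at 21, 6, 9 and 7 of the 795 in the same order, or 2.64%, 0.755%, 1.13% and 0.881%, against 3.23%, 1.74%, 1.2% and 1.32% of all positions. The smallest adjusted p was 0.0546, at the Rbpj position 53554811 in the PBS pair. The depth limits this layer, since the median position had 9 to 14 reads in a library.

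Beyond the 10 genes, 40 further genes of the pathway were examined, of which 32 had a testable window and 302 windows in all. In Teff, 3 windows at 2 genes were called higher in OX40L-JAG1 and 2 windows at 2 genes lower, against 0.0884% and 0.47% of all windows. Fbxw7, a ubiquitin ligase subunit that marks the active receptor for destruction, was higher at chr3:84868001-84869000, with 95.2% of 63 reads in OX40L-JAG1 Teff and 75.2% of 105 in PBS Teff. Maml2, a Mastermind coactivator, had 2 windows higher and 1 lower, the widest at chr9:13660001-13661000 with 100% of 38 reads in OX40L-JAG1 Teff and 67.6% of 34 in PBS Teff. Maml3, another Mastermind coactivator, was lower at chr3:51826001-51827000, with 43.3% of 60 reads in OX40L-JAG1 Teff and 76.7% of 73 in PBS Teff. That Maml3 window was also called in the PBS pair, with 37.2% of 43 reads in PBS Treg and 76.7% of 73 in PBS Teff.

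None of the 33 windows of the other ligand genes was called for the treatment in Teff by Fisher's exact test. The 51 windows of glycosylation and receptor-processing genes and the 25 of other target genes were not called either. Of all windows, 0.0884% were called higher and 0.47% lower in that comparison. In Treg 0 of the 302 pathway windows were called, against 0.0194% higher and 0.0814% lower of all windows. With shares this low, 0 calls in so few windows tell little. The locus that differed most between the Treg libraries was Mfng, encoding a Fringe glycosyltransferase that modifies Notch receptors, at 79.7% in OX40L-JAG1 Treg and 89.5% in PBS Treg on 10 positions (-9.81 points, -22.8 to 2.35). Between the cell types, Gata3, a target that drives T helper differentiation, had 1 window lower in OX40L-JAG1 Treg than in OX40L-JAG1 Teff, at chr2:9868001-9869000 with 60.0% of 290 reads in Treg and 83.0% of 435 in Teff. Maml2 had 2 windows higher in PBS Treg than in PBS Teff, the wider with 80.9% of 89 reads in Treg and 44.6% of 157 in Teff. Of the 302 windows, 0 were called higher and 1 lower in Treg in the OX40L-JAG1 pair, against 0.0547% and 0.0588% of all windows. In the PBS pair 2 were called higher and 1 lower, against 0.115% and 0.165%. Over the 27 pathway loci with at least 20 positions the median difference was -2.34 points for the treatment in Teff and -1.27 in Treg, and all loci had medians of -2.68 and -1.88.

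Among 16619 other protein-coding loci, those most like the Notch1 locus over the 4 libraries, by the largest gap in level at any library, were Actr8 with a gap of 2.43 points, Chmp1b with 3.55 and Rccd1 with 3.64. Actr8, encoding an actin-related protein, had 61.1% in OX40L-JAG1 Teff and 52.4% in PBS Teff, and 58.9% in OX40L-JAG1 Treg and 62.6% in PBS Treg. The Notch1 levels in this ranking rest on 25 positions, 8 of them in the called upstream window.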

How the data were processed

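Bisulfite reads were processed by the authors with Trimmomatic and Bismark against mm10, as the submitters' processing notes list them. Whether duplicates or C/T variants between NOD mice and the build were removed is not given in the sources used here, nor are versions. Such a variant would read as unmethylated. The deposited table lists 25374149 cytosine positions, 1 line per strand, and per the file headers gives the count of reads, the count of methylated reads and the level of each library. The levels are a fraction in the deposited table and equal the ratio of the deposited counts within 5e-07. The smallest nonzero deposited count is 5, so totals are not depth. Listed reads were 159291553 in OX40L-JAG1 Teff, 208402911 in PBS Teff, 103584075 in OX40L-JAG1 Treg and 131555634 in PBS Treg. The deposited positions are 1-based: in RefSeq promoter sequences 49.63% fell on the C of a CpG, 50.35% on its G and 0.0153% elsewhere.

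Kept positions had 5 reads or more in every library, 18.9% of the table and 2.79% (Notch1) to 15.1% (Rbpj) of those listed at a member. Reads were summed in 1-kb windows with at least 5 kept positions and tested with the two-sided Fisher's exact test and Benjamini-Hochberg adjustment over the genome. The interaction was a logistic Wald test, after adding 0.5 to the cells. Intervals are 95% Wilson (levels) and Newcombe (differences). They cover counting error only, since sequenced reads are not independent molecules. Genes came from the RefSeq table of GRCm38.p6, which has no exons, so exon, intron and UTR were not told apart. All 10 member genes are named with every call at them. Of the other pathway genes, those with a called window are named, or else the one with the largest locus difference for a treatment. The members, lists and tests were chosen with earlier results of these data known. Starts came from 11 RefSeq promoter entries of 9 members, and Hes1 is given by its gene bounds. Alternatives changed the read minimum, positions, windows, thresholds and flanks. The tests were tried on simulated data. Python 3.11.15, numpy 2.4.6, scipy 1.17.1, pandas 2.3.3 and numba 0.67.0 were used.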

Additional observations from a re-analysis of the deposited data

How the results depend on the processing

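The Notch1 window was also called with 3 positions per window, windows moved by 500 bases, differences centred on the median, or positions read in the 2 Teff libraries only. The same held without positions over 50 reads, an alternative chosen after seeing the data. The difference was 24.3 to 27.1 points. In all of these settings the window held the same 8 positions and the same reads. Only the windows adjusted over or the centring changed, so these settings could not show whether other reads give the call. A minimum of 10 reads left 12 windows at the 10 genes, of which 0 were called for the treatment in Teff; it left 1 position at Notch1, so the Notch1 window could not be tested. Counts divided by 3 also gave 0. A threshold of 10 points gave 3 calls, adding a lower window each of Notch3 and Rbpj. Positions read in the 2 libraries gave 4 calls for the treatment in Teff, and 1 for PBS Treg against PBS Teff. Moved windows also gave 1 call in that PBS pair. The other window, interaction and position counts did not change. Each median locus difference moved by less than the counting error of a locus, taken as the median margin of the Newcombe intervals of the loci.

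Among single loci, a minimum of 10 reads turned the Teff difference of Jag1 to 0.177 points and that of Rbpj to 0.641, and the Treg difference of Hes1 to 5.13. Gene bounds alone turned Hes1 to 2.16 points for the treatment in Treg and to -0.706 for PBS Treg against PBS Teff. The cause was not tested. No paired analysis was possible because each group has 1 library and the labels carry no replicate numbers. No leave-one-out was possible for the same reason, and depths of 9 to 14 reads per position limit single positions to wide differences.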
